A study of Mus musculus with 4 samples.

Results

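*Il22*, the gene of interleukin-22, was followed in group 3 innate lymphoid cells (ILC3s) as a single row, matched by its symbol, out of the 2179 genes in the deposited table. The cells were Lin-GFP+ cells sorted by flow cytometry from the lamina propria lymphocytes (LPLs) of the large intestine of Rag1-/- mice with a heterozygous GFP reporter that marks ILC3s. Littermates had received PBS or 1 µg of the antibody α-DR3 (clone 4C12), which binds death receptor 3, and the cells were taken on day 3. Polyadenylated RNA was sequenced in 2 libraries per group, 4 in all, and each library came from cells pooled over several mice, so animals cannot be told apart. All mice of both groups lacked *Rag1*, and with it mature T and B cells, and carried 1 copy of the GFP reporter, so ILC3s were seen only in a host without adaptive lymphocytes and only as cells in which the reporter was on. The table gives 1 mean per group in FPKM (fragments per kilobase of transcript, scaled to the mapped fragments of the library), which is a level per length of transcript. It gives no value for a single library, and values of single libraries from other sources were not used here. The spread between replicates is therefore not given, no difference below was tested, and every fold change is a ratio of the authors' means. The table holds only genes that the authors had annotated as protein-coding and selected as differing between the groups and as lying above 1 FPKM in at least 1 group, so *Il22* was in it by that selection, and a gene that did not meet it was not analysed here.

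IL-22 is a secreted cytokine of the IL-10 family that ILC3s release in the gut wall. It acts on epithelial cells, which carry its receptor, through STAT3, and it drives antimicrobial peptide production, mucus changes and repair of the epithelium. In ILC3s its transcription depends on the aryl hydrocarbon receptor, among other factors, and is raised by IL-23 and IL-1β.

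In the PBS group *Il22* stood at 17424 FPKM, and in the α-DR3 group at 44537 FPKM. The α-DR3 mean was 2.56 times the PBS mean, a log2 ratio of 1.35, and the difference in level was 27113 FPKM. *Il22* had the highest level of all listed genes in both groups, so it was the leading listed transcript with and without the antibody. The median log2 ratio over all listed genes was 0.39, and relative to that median gene *Il22* was 1.96 times higher after α-DR3. Because each library held the RNA of many sorted cells, a larger share of *Il22*-producing cells and more *Il22* RNA per cell cannot be told apart.

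*Il22* lies on chromosome 10 of the mouse genome (GRCm38, GENCODE M21) at chr10:118204942-118210047, on the plus strand. It has 5 exons and 1 protein-coding transcript of 1110 bases, with 49 bases of 5′ untranslated region (UTR), 540 coding bases including the stop codon, which encode 179 residues, and a 3′ UTR of 521 bases. A near-identical gene copy, *Iltifb*, also has 5 exons and lies on the minus strand at chr10:118289629-118295038, with 79581 bases between the genes. Exon 2, which is coding throughout, shows how close the genes are and is printed for both. It lies at chr10:118205570-118205635 in *Il22* and at chr10:118294345-118294410, on the minus strand, in *Iltifb*. Capitals mark the 3 of its 66 bases that differ.

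Il22 exon 2: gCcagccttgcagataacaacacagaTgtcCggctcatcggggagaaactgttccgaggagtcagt
Iltifb exon 2: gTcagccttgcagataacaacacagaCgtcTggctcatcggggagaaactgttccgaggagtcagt

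The sequence just before the annotated first base of each gene is shown because the genes part there. The windows are RefSeq promoter sequence (GRCm38.p6), cut at the GENCODE start, for *Il22* at chr10:118204714-118204941, plus strand, and for *Iltifb* at chr10:118295039-118295288, minus strand. Capitals mark TATAAA, the letters of a TATA box.

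Il22 upstream: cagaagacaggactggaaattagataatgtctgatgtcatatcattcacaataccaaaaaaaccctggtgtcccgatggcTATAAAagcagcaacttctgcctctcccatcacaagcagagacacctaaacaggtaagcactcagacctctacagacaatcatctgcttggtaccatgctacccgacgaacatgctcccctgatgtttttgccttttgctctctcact
Iltifb upstream: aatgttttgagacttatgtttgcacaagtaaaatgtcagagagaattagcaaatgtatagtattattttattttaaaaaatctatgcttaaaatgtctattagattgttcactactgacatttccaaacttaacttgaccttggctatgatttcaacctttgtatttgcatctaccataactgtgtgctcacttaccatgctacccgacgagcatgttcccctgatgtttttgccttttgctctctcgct

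A local alignment of both promoter windows, 300 bases each, covered 102 bases with 4 differences, and 57 of these bases lay before the annotated start. Further upstream the windows held no part of the alignment. TATAAA occurred once in the *Il22* window, at chr10:118204794-118204799, with its first base 148 bases before the annotated start, and 0 times in that of *Iltifb*. Of 32851 RefSeq promoter windows of the same length, 13.6% held TATAAA on either strand. GCGTG, the core of an aryl hydrocarbon receptor element, and TTCNNNGAA, a STAT element, occurred 0 times in both, against 32.4% and 8.30% of all windows. The motifs were searched on both strands and do not contain each other.

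The 3′ UTR of *Il22* was rich in ATTTA, the core of AU-rich elements, through which short-lived cytokine mRNAs are bound. A 30-base run at chr10:118209882-118209911, plus strand, is shown because it holds 2 of the 6 copies, in capitals.

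Il22 3′ UTR site: tttATTTAttataagtatacattttATTTA

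*Iltifb* had 5 copies in its 3′ UTR. Among 2227 annotated mouse 3′ UTRs with a length within 1.25-fold of that of *Il22*, the median was 1 copy, 53.7% had at least 1, and 19 (0.853%) had at least 6. Of 11 genes for factors that bind such elements, 3 were listed. *Zfp36*, which encodes tristetraprolin, a factor that speeds mRNA decay, stood at 2390 FPKM in PBS and 1141 FPKM in α-DR3. Its relative *Zfp36l1* stood at 940.4 and 594.5 FPKM. *Elavl1*, which encodes the stabilizing factor HuR, stood at 31.4 and 40.6 FPKM, a ratio of 1.29 that turned to 0.990 when divided by the median ratio of the listed genes. The means of both listed decay factors were thus lower after α-DR3 and that of *Il22* higher, and a link between these was not tested.

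*Il22* took a large part of the RNA measured. Its level times its length gave 1.93% of all mapped fragments in PBS and 4.92% in α-DR3, or about 1 fragment in every 20 after α-DR3. Rescaled so that the median listed gene had the same CPM from FPKM times length as in the table, these shares were 0.978% and 2.50%. These lower shares follow the median gene, whose CPM was 0.508 of the value from FPKM times length, against 0.980 for *Il22*. The authors' average over all 4 libraries, 33553 CPM (counts scaled to library size), was 3.36% of counts and lay within 2% of the value that the group means and the length of 1105 bases in the table imply. Of the FPKM summed over the listed genes, *Il22* held 16.0% in PBS and 29.0% in α-DR3. The sums themselves were 108959 and 153670 FPKM. Since FPKM values are shares, a larger share for *Il22* leaves less for other genes, and without the fragments of *Il22* the ratio of every other gene would be 3.15% higher.

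**Figure D1:**
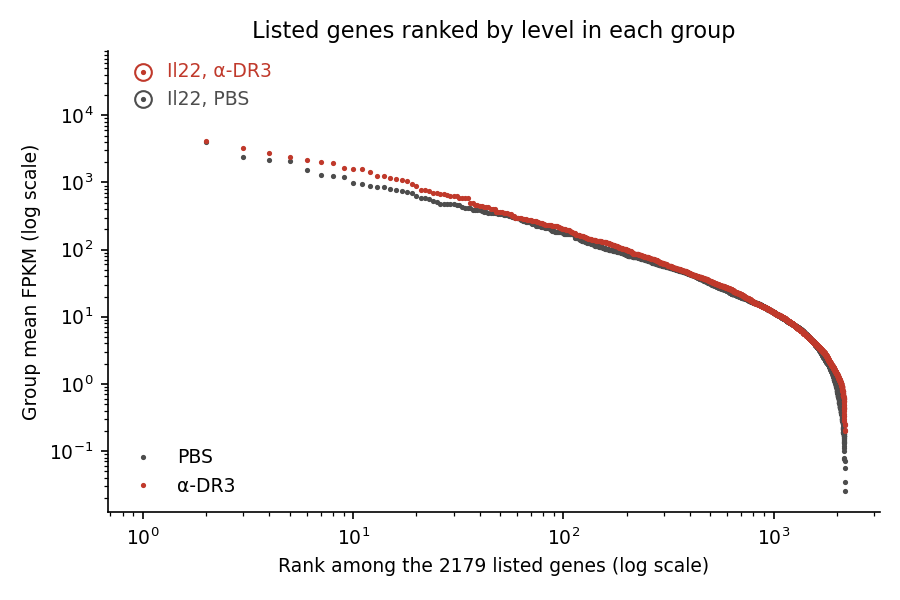
Group mean FPKM of the 2179 listed genes (y axis, log scale) against their rank in that group (x axis, log scale), with grey points for PBS and red points for α-DR3, and *Il22* ringed. The 5 genes listed at 0 in each group are not drawn. *Il22*, at 17424 and 44537 FPKM, stands apart from the rank 2 genes, *Junb* at 4051 FPKM in PBS and *Fth1* at 4189 FPKM in α-DR3.

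The distance to the next gene was wide in both groups. In PBS the gene at rank 2 was *Junb*, a subunit of the transcription factor AP-1, at 4051 FPKM, and *Il22* was 4.30 times higher. In α-DR3 it was *Fth1*, the heavy chain of ferritin, at 4189 FPKM, and *Il22* was 10.6 times higher. The plot of level by rank shows a gap after *Il22* in both groups and a continuous fall from rank 2 on. The 9 genes after *Il22* summed to 16964 FPKM in PBS, less than *Il22* alone, and 10 genes were needed to reach it. In α-DR3 the next 9 genes summed to 21914 FPKM, and 36 genes were needed. The median listed gene stood at 9.87 FPKM in PBS and 9.94 FPKM in α-DR3, and *Il22* was 1766 and 4483 times higher than it. By CPM over all libraries, which is not corrected for length, *Il22* was also first and 5.96 times higher than *Junb*.

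The genes below *Il22* at the top of the table differed between the groups. Of the 10 highest genes in PBS, 6 were also among the 10 highest in α-DR3. Of the PBS top 10, 5 had a higher mean in α-DR3, which were *Il22*, *Fth1*, *Cd82*, *Cd74* and *Gp49a*. The other 5 had a lower mean, and they were *Junb*, *Zfp36*, *Nr4a1*, *Gadd45b* and *2310016C08Rik*. *Nr4a1*, an immediate early nuclear receptor, stood at 1516 FPKM in PBS and 589.0 FPKM in α-DR3, while *Gadd45b*, a stress response gene, stood at 1299 and 763.8 FPKM. In α-DR3 the top 10 also held *Gzmc*, a granzyme, *Ly6a*, which encodes the surface protein Sca-1, *H2-Aa*, a chain of MHC class II, and *Tmem176a*, and 9 of the 10 were higher than in PBS. These 10 were chosen by their level in α-DR3, which favours genes higher there, and 54.6% of all listed genes were higher in α-DR3.

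The difference in level of *Il22* between the groups was larger than the net difference of all other listed genes together. The other 2178 listed genes had a net difference of 17598 FPKM, made of 37213 FPKM in genes that were higher in α-DR3 and -19615 FPKM in genes that were lower. The sign of this net value depended on the scaling, and with α-DR3 levels divided by the median ratio of the listed genes it was -7972 FPKM, against 16678 FPKM for *Il22*. The next largest difference was that of *Cd74*, the invariant chain of MHC class II, at 2267 FPKM, and that of *Il22* was 12.0 times as large. As a ratio, *Il22* was less extreme. Ratios larger than that of *Il22* were found for 300 listed genes (13.8%), for 17 of the 226 genes with at least 100 FPKM in either group, and for 5 of the 20 genes with at least 1000 FPKM. Those 5 were *Cd74*, *H2-Aa*, *H2-Ab1*, *H2-Eb1* and *Gzmc*.

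**Figure D2:**
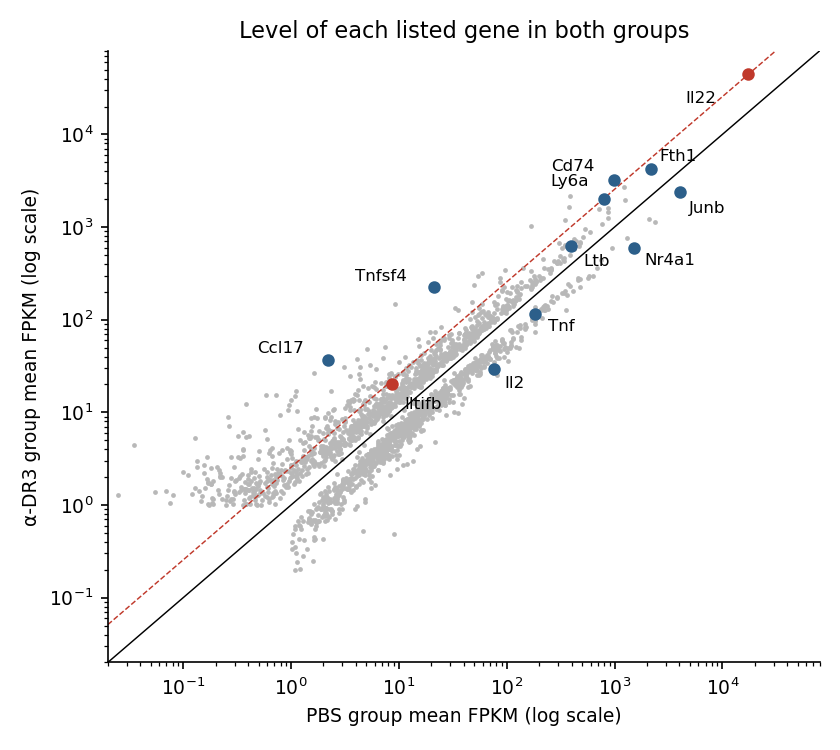
Group mean FPKM in α-DR3 (y axis, log scale) against PBS (x axis, log scale) for each listed gene, with the solid line at equal levels and the dashed line at the ratio of *Il22*, 2.56, and without the genes listed at 0 in PBS or α-DR3. *Il22* lies at the upper right end and *Iltifb*, at 8.59 and 20.2 FPKM, close to the same dashed line, and the empty band along the solid line reflects the authors' selection of differing genes.

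The share of listed genes with a ratio of at least 1.5, to which *Il22* belongs, was large by itself. It was 37.1% for genes higher in α-DR3 (808 of 2179) and 38.4% for genes lower in α-DR3 (836 of 2179). When every ratio was divided by the median ratio of the listed genes, 21.1% were at least 1.5-fold higher and 45.3% at least 1.5-fold lower, so the balance between both directions depends on the scaling. *Il22*, at 1.96, stayed above 1.5 in it.

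Of the 5 genes of at least 100 FPKM in either group whose log2 ratio was nearest to that of *Il22*, compared over the 2 groups only, 4 are given here, *Prf1*, *Ly6a*, *Syngr2* and *Avpi1*. *Prf1*, which encodes the pore protein perforin, stood at 48.1 FPKM in PBS and 122.4 FPKM in α-DR3, and its log2 ratio of 1.35 differed from that of *Il22* by 0.01. *Ly6a* stood at 801.4 and 2030 FPKM, 0.01 away. *Syngr2*, a synaptogyrin gene, stood at 141.6 and 366.1 FPKM, 0.02 away, and *Avpi1* was the farthest of the 4 at 59.1 and 146.0 FPKM, 0.05 away. With 1 mean in each of 2 groups, likeness of ratio is all that these data can show, and the levels of the 4 genes differed widely.

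Among the ligands of the immune system, *Il22* outweighed all others combined. The table listed 32 genes of interleukins, chemokines, TNF family ligands and related cytokines, *Il22* included. The other 31 summed to 2203 FPKM in PBS and 3377 FPKM in α-DR3. *Il22* was 7.91 times that sum in PBS and 13.2 times that sum in α-DR3, and it held 88.8% and 93.0% of all listed ligand FPKM. The next highest ligand in both groups was *Ltb*, lymphotoxin β, which lymphoid tissue inducer cells use in building lymphoid structures, at 393.0 and 632.2 FPKM. *Il22* was 44.3 times higher than *Ltb* in PBS and 70.4 times higher in α-DR3.

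**Figure D3:**
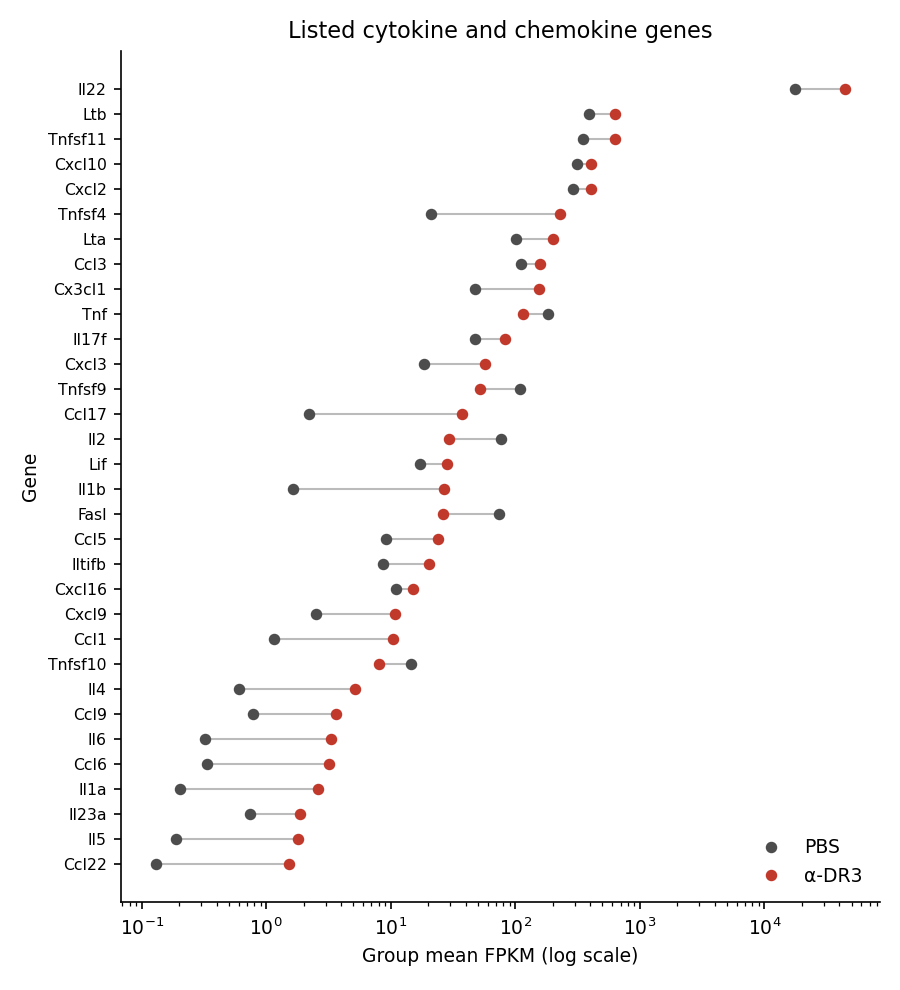
Group mean FPKM (x axis, log scale) of the 32 listed cytokine and chemokine genes (y axis), with grey points for PBS, red points for α-DR3 and a line joining them, ordered by the α-DR3 level. *Il22* lies far to the right of *Ltb* in both groups, while *Tnf*, *Tnfsf9*, *Il2*, *Fasl* and *Tnfsf10* are the 5 genes with the red point to the left.

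Of the other 31 ligands, 26 had a higher mean in α-DR3 and 5 a lower one, and 22 were at least 1.5-fold higher (18 relative to the median listed gene), against 37.1% (21.1%) of all listed genes. *Il4*, *Ccl9*, *Il6*, *Ccl6*, *Il1a*, *Il23a*, *Il5* and *Ccl22* lay below 1 FPKM in PBS. The selection could list them only if higher in α-DR3, so the count of 22 cannot be weighed against the share of all listed genes. A larger ratio than that of *Il22* was found for 15 of the 31 ligands, but at low levels. The highest of these 15 in α-DR3 was *Tnfsf4*, the gene of OX40L, at 226.4 FPKM against 21.1 FPKM in PBS, and 11 of the 15 stood below 5 FPKM in PBS. *Il1b*, which encodes a cytokine that acts on ILC3s, stood at 1.64 FPKM in PBS and 26.9 FPKM in α-DR3, and *Il23a*, which encodes the p19 subunit of IL-23, at 0.740 and 1.86 FPKM. Both were thus far below *Il22* in the sorted cells.

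Of 18 genes of cytokines that ILC3s are known to make, 8 were listed. The median log2 ratio of the 8 was 0.83, against 0.39 over all listed genes, and 6 were at least 1.5-fold higher and 2 at least 1.5-fold lower. Relative to the median listed gene, 3 were at least 1.5-fold higher, *Il22*, *Tnfsf4* and *Lta*, and 2 were again at least 1.5-fold lower. Over all listed genes the shares were 37.1% higher and 38.4% lower, and 21.1% and 45.3% relative to the median gene. *Tnfsf11*, the gene of RANKL, stood at 347.1 FPKM in PBS and 626.7 FPKM in α-DR3, and *Lta*, lymphotoxin α, at 100.9 and 199.1 FPKM. *Il17f*, the listed interleukin-17 gene of the set, stood at 47.5 and 82.8 FPKM. *Tnf* stood at 183.7 and 115.7 FPKM, and *Il2*, a growth factor of lymphocytes, at 76.8 and 29.4 FPKM. *Il22* and the other 5 higher members thus lay apart from *Tnf* and *Il2*, and *Il22* had the second largest ratio of the 8, after *Tnfsf4*.

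Of 15 symbols of the IL-10 family and its receptors, those listed were *Il22* and *Iltifb*. *Iltifb* stood at 8.59 FPKM in PBS and 20.2 FPKM in α-DR3, a ratio of 2.35 and a log2 ratio of 1.23. Its ratio was thus near that of *Il22*, but its level was 0.0493% of that of *Il22* in PBS and 0.0453% in α-DR3, so that *Il22* was 2028 and 2208 times higher. The transcripts can share reads. Over 1110 aligned bases they differed at 29, an identity of 97.4%, with 3 differences in the 5′ UTR, 9 in the coding part and 17 in the 3′ UTR, and with 1 base in a gap. Of the 1061 windows of 50 bases in the *Il22* transcript, 435 (41.0%) occurred unchanged in *Iltifb*, and of the 981 windows of 130 bases, the fragment length of these libraries, 114 (11.6%) did. The longest run without a difference had 215 bases, from transcript position 308 to 522. How the authors' counting split fragments between the genes was not tested, and the level of *Iltifb* is uncertain for that reason. The sum of both genes was nearly that of *Il22* alone, at 17432 and 44557 FPKM.

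**Figure D4:**
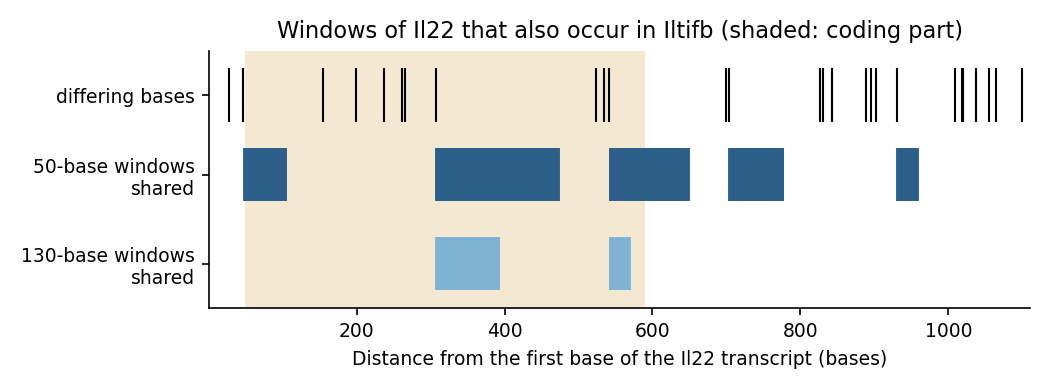
Bases that differ between the *Il22* and *Iltifb* transcripts (black, top) and start positions of *Il22* windows of 50 and 130 bases that occur unchanged in *Iltifb* (blue blocks), along the *Il22* transcript of 1110 bases (x axis, bases from its first base), with the coding part shaded. Shared windows of 130 bases start in 2 blocks in the second part of the coding sequence, the first inside the run of 215 bases without a difference and the other reaching into the 3′ UTR.

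On the chromosome, the listed gene nearest to *Il22* on the other side was *Mdm1*, 35945 bases before it, at 5.27 FPKM in PBS and 10.3 FPKM in α-DR3. Beyond *Iltifb* the next listed gene was *Tbc1d30*, 3053773 bases from *Il22*, at 1.55 and 3.01 FPKM. These genes had ratios of 1.96 and 1.94, at levels that were, against *Il22*, lower by more than 3 orders of magnitude.

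A list of 37 genes known to act on *Il22* in ILC3s (cytokine receptors, signal carriers and transcription factors) held 12 listed genes. Of these, 8 had a higher and 4 a lower mean in α-DR3 (7 and 5 relative to the median listed gene, since *Tnfrsf25* turned). In the means as given, 5 were at least 1.5-fold higher and 2 at least 1.5-fold lower (2 and 4 relative to the median listed gene), and the median log2 ratio was 0.51 against 0.39 over all listed genes. The shares over all listed genes were 37.1% and 38.4% (21.1% and 45.3%). The higher counts of this list thus lay near the background and the lower counts under it, in a list of only 12 genes. None of the 12 had a ratio as large as that of *Il22*.

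**Figure D5:**
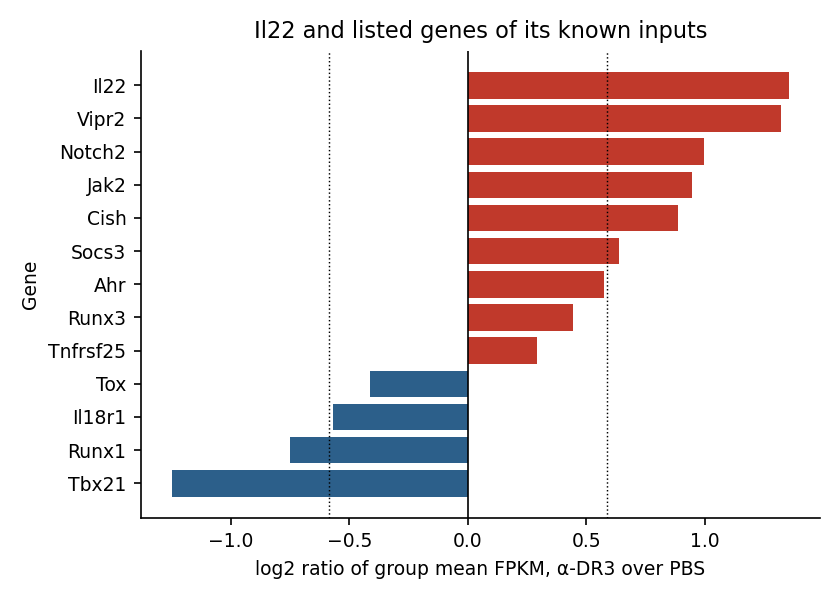
The log2 ratio of group mean FPKM, α-DR3 over PBS (x axis), of *Il22* and of the 12 listed genes known to act on it (y axis), with bars in red where α-DR3 was higher and blue where PBS was higher, and dotted lines at 1.5-fold. *Il22*, at 1.35, has the longest bar to the right, and the transcription factor genes *Tbx21* and *Runx1* pass the dotted line to the left.

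Among the receptors, *Tnfrsf25*, which encodes DR3 itself, the target of the antibody, stood at 114.5 FPKM in PBS and 140.1 FPKM in α-DR3, a ratio of 1.22 that turned to 0.937 when divided by the median ratio of the listed genes. *Il18r1*, a chain of the IL-18 receptor, stood at 127.2 and 85.8 FPKM. *Vipr2*, a receptor of vasoactive intestinal peptide, stood at 1.54 and 3.83 FPKM, and its log2 ratio of 1.32 was the nearest of the list to that of *Il22*. The receptors of IL-23 and IL-1β were not analysed here.

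Among the signal carriers, *Jak2*, a kinase used by the IL-23 receptor, stood at 16.7 FPKM in PBS and 32.1 FPKM in α-DR3. *Socs3*, a STAT3 target that limits its signal, stood at 277.4 and 432.0 FPKM, and *Cish*, a related STAT5 target, at 77.7 and 143.7 FPKM. *Notch2*, a receptor that feeds ILC3 fate, stood at 24.0 and 47.8 FPKM. All 4 were at least 1.5-fold higher in α-DR3, as *Il22* was, but relative to the median listed gene only *Notch2* of these 4 was, at 1.53, with *Jak2* at 1.47, *Cish* at 1.42 and *Socs3* at 1.19.

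The transcription factors did not share 1 direction. *Ahr*, the aryl hydrocarbon receptor gene, stood at 10.7 FPKM in PBS and 16.0 FPKM in α-DR3, a log2 ratio of 0.58. *Tbx21*, which encodes T-bet, stood at 121.2 and 51.0 FPKM, a log2 ratio of -1.25. The means of *Il22* and of *Tbx21* thus lay on opposite sides. *Runx1* stood at 38.4 and 22.8 FPKM and *Runx3* at 63.7 and 86.5 FPKM, so these related factors differed in direction too. *Tox*, needed for innate lymphoid precursors, stood at 51.2 and 38.4 FPKM.

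Of 12 genes that IL-22 is known to raise in epithelial cells, 1 was listed, *Nos2*, the inducible nitric oxide synthase, at 14.8 FPKM in PBS and 36.7 FPKM in α-DR3. Since ILC3s were sorted away from the epithelium, this gene is no readout of IL-22 action on epithelial cells.

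Markers of the labelled cell type were looked up. This is no check of cell identity, since a marker that did not differ could not be listed. Of 7 ILC3 markers, 3 were listed, and all 3 were present in both groups. *Thy1* stood at 162.8 FPKM in PBS and 268.3 FPKM in α-DR3, *Ccr6*, found on lymphoid tissue inducer-like ILC3s, at 29.5 and 68.3 FPKM, and *Ncr1*, which encodes NKp46 of the NCR+ subset, at 460.2 and 279.0 FPKM. Of the 3, 2 were at least 1.5-fold higher (1 relative to the median listed gene, *Ccr6*) and 1 at least 1.5-fold lower, while *Il22* was higher. Among all listed genes, 37.1% were higher and 38.4% lower by that limit (21.1% and 45.3% relative to the median gene), and 3 markers are too few to compare.

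Markers of other cells differed between the groups as well. Of 17 myeloid markers, 7 were listed and all 7 were at least 1.5-fold higher in α-DR3 (6 relative to the median listed gene, without *Zbtb46* at 1.29), against 37.1% (21.1%) of all listed genes, with a summed level of 51.7 FPKM in PBS and 128.1 FPKM in α-DR3, led by *Zbtb46* at 42.3 and 71.4 FPKM. The other 6 had a sum of 9.45 FPKM in PBS and 56.7 FPKM in α-DR3. Among them the macrophage gene *Lyz2*, which encodes lysozyme, stood at 4.09 and 37.9 FPKM, a ratio of 9.28. The macrophage gene *C1qb*, a complement chain, stood at 0.670 and 4.17 FPKM, a ratio of 6.22. Of the 7 listed myeloid markers, 4 had a PBS mean under 1 FPKM, *C1qb* included, so the selection fixed their direction. The count of 7 thus cannot be weighed against the share of all listed genes. Of 7 fibroblast markers, 5 were listed and all 5 were at least 1.5-fold higher (4 relative to the median listed gene). They went from 6.58 to 16.6 FPKM in sum, led by *Dcn* at 3.16 and 8.69 FPKM. For 3 of these 5 the PBS mean was under 1 FPKM, so a lower α-DR3 mean would have kept them out of the table. The shared direction of the 5 was therefore partly set by the selection. Of 6 markers of group 2 innate lymphoid cells, 4 were listed, 3 higher and 1 lower, with sums of 8.41 and 15.8 FPKM, led by *Klrg1* at 4.38 and 10.9 FPKM. The lower one was *Il1rl1*, the IL-33 receptor gene, at 3.40 and 1.81 FPKM. Below 1 FPKM in PBS lay 2 of the 3 higher ones, whose direction the selection likewise fixed. Of 8 markers of NK cells and group 1 innate lymphoid cells, 7 were listed, *Ncr1* among them again, 3 higher and 4 lower, with a median log2 ratio of -0.72. Their sums were 1446 and 1670 FPKM, led by *Gzmb* at 528.5 and 962.3 FPKM, and the ratio of these sums, 1.16, turned to 0.885 relative to the median listed gene. For T cells 1 of 7 markers was listed (*Lat*, 27.8 and 38.1 FPKM) and for B cells 1 of 6 (*Cd79b*, 10.9 and 27.2 FPKM), while granulocyte, epithelial and endothelial markers gave 0 of 8, 0 of 10 and 0 of 5. The highest of these sums, that of NK cells and group 1 innate lymphoid cells, was 8.3% of the level of *Il22* in PBS and 3.75% in α-DR3, and the part of these cells in the *Il22* difference was not tested.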

How the data were processed

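RNA was measured in 4 libraries of sorted large intestinal ILC3s, 2 per group, grouped by their titles. Per the submitters' processing notes and the study's methods, the authors used STAR 2.5 as the aligner on GRCm38.p5, RSEM 1.2 for gene levels and edgeR 3.18.1 for the group comparison. The deposited table holds FPKM values as the authors' means per group, gene lengths, and the authors' log2 of mean CPM over all libraries. The control mean is headed wt in the table and was taken as the PBS group, since all libraries share 1 genotype and PBS is the other treatment, so every PBS value rests on that reading. The table's fold changes, likelihood ratios, p-values and false discovery rates are the authors' comparison and were not used. Read depth of the libraries is not given in the sources used here, so no counting error could be computed.

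Ratios of group means, ranks and shares were computed without a pseudocount in Python 3.11.15 with pandas 2.3.3 and numpy 2.4.6, after the code was tested on simulated data. Fragment shares are FPKM times length. The ribosomal, mitochondrial, pseudocount, scaling, length and low-level alternatives are reported in the closing part. GENCODE M21, on the same build, held 2149 of the 2179 identifiers. Symbols turned into dates by a spreadsheet (5) were restored by identifier, and 1 symbol was listed under more than 1 identifier and kept as separate rows. Transcripts were aligned with Biopython 1.88 and figures drawn with matplotlib 3.10.9. Protein sequences were not used here.

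Genes named besides *Il22* were the 10 highest in each group, the 5 of at least 100 FPKM nearest in log2 ratio, listed members of the IL-10 family, *Il22* input, ILC3 cytokine and epithelial response lists, the highest listed marker of each cell type, and the nearest listed genes on the chromosome. Other ligands, the AU-rich element factors, further ILC3 and myeloid markers and the MHC class II genes with larger ratios were named after their values were seen. The gene and all lists were chosen with earlier results of these data known. Some genes are not reported here and were left out of the lists.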

Additional observations from a re-analysis of the deposited data

How the results depend on the processing

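The rank of *Il22* was 1 in both groups over all listed genes, over genes above 5 FPKM in either group, and by FPKM times length. Its ratio of 2.56 was 2.56 with a pseudocount of 1 or 5 FPKM. It was 1.96 when both groups were divided by the median ratio of the listed genes (1.31), and 2.14 when divided by the sum of the other listed genes, always with α-DR3 above PBS. Its share of summed FPKM was 16.1% and 29.2% over genes above 5 FPKM, and 16.2% and 29.3% without the 8 listed ribosomal protein genes (0 mitochondrial genes were listed). Its share of fragments in α-DR3 was 4.94% with the length of the longest annotated transcript. Rescaled so that the median listed gene had the same CPM from FPKM times length as in the CPM column, the shares were 0.978% and 2.50%. That rescaling follows the median gene, for which the CPM was 0.508 of the value from FPKM times length, against 0.980 for *Il22* and a median of 0.962 for 229 listed genes under 2000 bases and above 5 FPKM. Genes at least 1.5-fold higher numbered 517 among those above 5 FPKM and 460 after division by the median ratio, where 986 were lower, so the higher share of calls was 31.8% against 49.1% without it. The same division, applied to the gene lists after seeing the data, left 2 input genes at least 1.5-fold higher and 4 lower, 3 ILC3 cytokine genes higher and 1 ILC3 marker higher. No paired analysis was possible because the table used here gives group means only, and leaving out each replicate was not run for the same reason. Values of single libraries from other sources were not used here, so the size of each difference carries no error, and how far 1 library decides it was not tested.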
